A study of Homo sapiens with 12 samples.

Results

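The 9 S100 genes *S100P*, *S100A2*, *S100A3*, *S100A4*, *S100A6*, *S100A10*, *S100A11*, *S100A13* and *S100A16* were examined in MNNG/HOS cells, a human osteosarcoma line derived from HOS by chemical transformation (labelled HOS-MNNG). They were taken by gene symbol out of 43236 gene symbols counted in each library, and all 9 were among the 15979 genes with enough counts to be tested. The cells received DMSO, the solvent, or 300 nM NXP800, a small molecule developed against the heat shock factor 1 pathway, for 6 h or 24 h. There were 3 poly(A) RNA libraries in each of the 4 conditions, DMSO 6 h, NXP800 6 h, DMSO 24 h and NXP800 24 h, and every condition is the same single line without genetic change. The question put by the design is what NXP800 changes in RNA levels early and later. The 9 genes were selected on measured values, the NXP800 response in these same libraries. Their levels and differences under NXP800 are therefore given as descriptions, without a test.

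S100 proteins are small calcium-binding proteins with a pair of EF-hand motifs that mostly act as dimers. On binding calcium they expose a surface that docks onto partners such as annexins, nonmuscle myosin and p53, and several are also released and bind receptors at the cell surface. Most of their genes lie in a cluster on the long arm of chromosome 1, and altered levels of single members are a common feature of tumors.

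The libraries held between 30810614 and 31947656 counts on genes. Reads outside annotated genes took 6.66 to 8.14% of 6 h libraries and 2.73 to 3.67% of 24 h libraries. *DDIT3*, which encodes the stress factor CHOP, had 410 to 434 counts in DMSO 6 h libraries and 3066 to 4053 counts in NXP800 6 h libraries. At 24 h it had 252 to 315 counts with DMSO and 2046 to 2786 counts with NXP800, so each library matched its treatment label. Levels are given below as CPM, counts relative to the library size after scaling by the trimmed mean of M values (TMM). Of 8 mesenchymal and osteoblast markers, *VIM*, *COL1A1*, *RUNX2* and *SPP1* were detected in every library, whereas *ALPL*, *BGLAP* and *IBSP*, which mark mature osteoblasts, had at most 7, 2 and 1 counts and the collagen gene *COL1A2* at most 12. The keratins *KRT8* and *KRT18* were abundant, but *CDH1*, *KRT5* and *KRT14* had at most 2, 1 and 1 counts. *EPCAM* had 170 to 325 counts, at 5.68 to 5.87 CPM with DMSO and 10.1 to 10.2 CPM with NXP800 at 24 h. *PTPRC* and *SOX10*, which define leukocytes and melanocytic or glial cells, had at most 5 and 0 counts. The summed markers moved with treatment. The mesenchymal and osteoblast sum, which is mostly *VIM*, was 4573 to 4658 CPM with DMSO and 3968 to 4081 CPM with NXP800 at 6 h, and 5483 to 6296 CPM and 3711 to 4512 CPM at 24 h. Its member *RUNX2* went the other way, with 26.1 to 28.4 CPM with DMSO and 31.3 to 42.5 CPM with NXP800 at 24 h. At 24 h the epithelial sum was 1734 to 1783 CPM and 1083 to 1360 CPM, and the leukocyte sum, which is nearly all *CD68*, 71.4 to 94.2 CPM and 120 to 155 CPM. The leukocyte marker *CD14* went the other way, with 57 to 100 counts with DMSO and 10 to 27 with NXP800 at 24 h. So did *ITGAM*, with 5 to 9 and 2 to 3 counts, and *CSF1R*, with 15 to 19 and 7 to 13 counts. The part of these markers in the S100 results was not tested. The RNA is from whole cultures, so fewer expressing cells and less RNA per cell cannot be told apart.

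The 8 S100A genes lie on the minus strand of chromosome 1 and *S100P* on the plus strand of chromosome 4 (GRCh38.p14, RefSeq). *S100P* spans chr4:6693878-6697170. *S100A6* (chr1:153534599-153535991), *S100A4* (chr1:153543621-153545806), *S100A3* (chr1:153547329-153549258) and *S100A2* (chr1:153561108-153565844) follow each other within 31.2 kb. *S100A16* (chr1:153606883-153613137) and *S100A13* (chr1:153618799-153634361) lie beyond them, and *S100A10* (chr1:151982915-151993859) and *S100A11* (chr1:152032506-152037004) at the other end of the region. Of the GENCODE exon bases of *S100A13*, 24.2% overlap exons of another gene on the same strand and 10.6% exons on the opposite strand, among them those of *S100A1*. The study names a RefSeq annotation for its reads, and whether the counter met the same overlaps was not tested. Where it did, reads of *S100A13* and its neighbors could be divided differently. Of the GENCODE exon bases of *S100A6*, 3.81% overlap an opposite-strand transcript. No overlap of GENCODE exons was found for the other 7 genes. By its RefSeq position, however, *S100A5* (chr1:153537147-153543685), on the same strand, reaches into the span of *S100A4*. Reads there could also be divided differently by the counter.

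In control cells the 9 genes covered a wide range of levels. Per kb of the reference transcript, in DMSO 6 h libraries, *S100A6* was at 2876 CPM per kb, followed by *S100A11* at 691, *S100A10* at 540, *S100A4* at 493, *S100A13* at 226 and *S100A16* at 145. *S100A3* at 13.2, *S100A2* at 11.1 and *S100P* at 2.41 CPM per kb were far lower. The libraries of *S100A10* and *S100A4* overlapped, and so did those of *S100A3* and *S100A2*, so neither order stands out from the spread. The order in DMSO 24 h libraries was the same except that *S100A4*, at 589 CPM per kb, stood above *S100A10* at 536, with overlapping libraries. In NXP800 24 h libraries *S100A6* was at 6198 CPM per kb, *S100A4* was in the sixth place at 155 CPM per kb, and *S100P* at 25.9 CPM per kb stood above *S100A3* at 7.49 CPM per kb, with no overlap between their libraries.

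**Figure D1:**
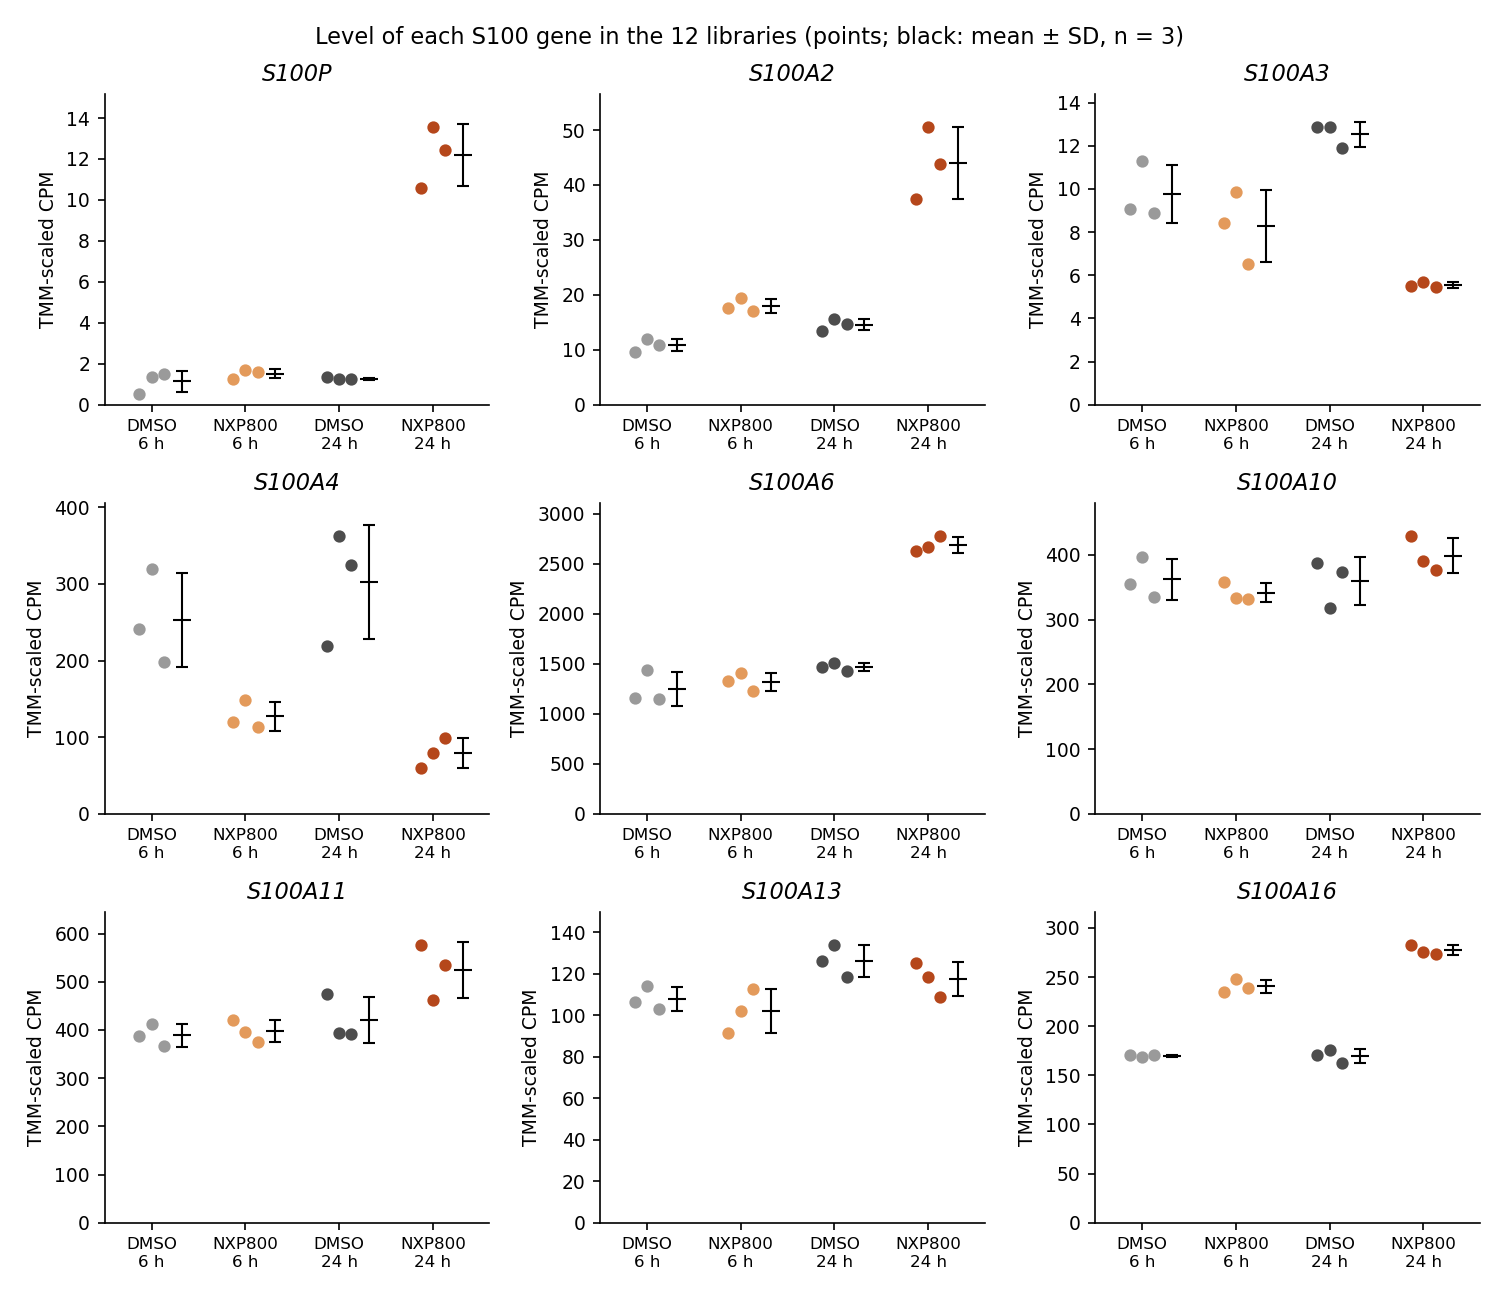
Level of each S100 gene (TMM-scaled CPM, linear axes from 0) in the 12 libraries, with points for replicates 1 to 3 from left to right and black marks for mean ± SD (n = 3). *S100P* lies between 0.538 and 1.68 CPM in 9 libraries and between 10.6 and 13.6 CPM in the 3 NXP800 24 h libraries, while *S100A4* is lower with NXP800 than with DMSO at both times.

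*S100P* encodes a secreted and cytoplasmic S100 protein first found in placenta and raised in many carcinomas. Its level was near the lower end of detection except after 24 h of NXP800. At 6 h its libraries had 17, 43 and 50 counts with DMSO (0.538, 1.36 and 1.52 CPM) and 41, 55 and 52 counts with NXP800 (1.26, 1.68 and 1.60 CPM). These groups overlapped, and the log2 fold change was 0.41 ± 0.27 (SE). Without DMSO 6 h replicate 1, the library with 17 counts, it was 0.07. At 24 h its libraries had 40, 37 and 36 counts with DMSO (1.34, 1.24 and 1.24 CPM) and 321, 433 and 390 counts with NXP800 (10.6, 13.6 and 12.4 CPM). All 3 treated libraries lay far above all other 9 libraries. The log2 fold change at 24 h was 3.26 ± 0.23 (SE), a 9.56-fold difference, and 2.99 to 3.45 within the 3 pairs of libraries with the same replicate number. At 24 h 64 of the 15979 tested genes had a higher log2 fold change, compared with 3308 at 6 h. Such ranks only describe genes that were chosen by this response.

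The 250 bases upstream of the RefSeq start of *S100P* are shown because this gene had the highest log2 fold change of the 9 at 24 h and the window holds 2 of the 3 motifs searched. The region is chr4:6693628-6693877 on the plus strand. Capitals mark TTTCATCA, the reverse complement of a TGATGNAA match, and TATAAA.
S100P: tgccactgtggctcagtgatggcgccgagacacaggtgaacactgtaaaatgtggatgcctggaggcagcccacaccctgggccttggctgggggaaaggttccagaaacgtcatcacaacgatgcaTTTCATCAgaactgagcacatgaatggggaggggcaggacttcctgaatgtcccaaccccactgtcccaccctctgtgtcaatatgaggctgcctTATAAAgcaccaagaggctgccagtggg
TGATGNAA is a form of the composite element bound by C/EBP-ATF dimers such as those with ATF4 or CHOP, TGANTCA is the AP-1 element and TATAAA the TATA box. The 3 motifs were chosen with the expression values known and were searched on both strands in the 250 bases before each start. The TGATGNAA match began 123 bases and TATAAA 28 bases before the *S100P* start. TGATGNAA was present in 3.14% of the 35116 upstream windows of all genes and in 1 of the 13 windows of the 9 S100 genes. No match only means that these letters are not in the window, and a match is not evidence of binding.

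*S100A4* encodes the metastasis-associated S100 protein that binds nonmuscle myosin IIA and p53. It had the lowest log2 fold change of the 9 genes at both times. At 6 h it was at 241, 319 and 198 CPM with DMSO and at 120, 149 and 113 CPM with NXP800. Its DMSO libraries were widely spread, but none reached down to the NXP800 libraries. The log2 fold change at 6 h was -0.99 ± 0.20 (SE). At 24 h the level was 219, 363 and 324 CPM with DMSO and 60.2, 79.3 and 98.9 CPM with NXP800. These NXP800 libraries were also below the NXP800 6 h libraries. The log2 fold change at 24 h was -1.93 ± 0.20 (SE), -2.19 to -1.71 within pairs, and 324 tested genes had a lower value. In counts, these were 6562, 10795 and 9447 with DMSO and 1823, 2532 and 3101 with NXP800.

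*S100A3* encodes a cysteine-rich S100 protein of the hair cuticle, and its gene starts 3.45 kb from that of *S100A4*. At 6 h its level was 9.09, 11.3 and 8.90 CPM with DMSO and 8.44, 9.88 and 6.54 CPM with NXP800, with overlapping groups. It was lower with NXP800 in each pair at this time, with a log2 fold change of -0.24 ± 0.13 (SE). At 24 h it was at 12.9, 12.9 and 11.9 CPM with DMSO and at 5.51, 5.70 and 5.45 CPM with NXP800. The treated libraries were close together and below the other 9 libraries. The log2 fold change was -1.17 ± 0.14 (SE).

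*S100A2* encodes a mainly nuclear S100 protein that binds p53 and is known from epithelia, and its gene is the next on the other side of *S100A3*. At 6 h it was at 9.69, 12.01 and 10.9 CPM with DMSO and at 17.6, 19.4 and 17.0 CPM with NXP800. The groups were apart, and the log2 fold change was 0.73 ± 0.11 (SE). At 24 h the values were 13.5, 15.6 and 14.7 CPM with DMSO and 37.5, 50.6 and 43.8 CPM with NXP800, so that the treated libraries were above all others. The log2 fold change was 1.59 ± 0.11 (SE), a 3.02-fold difference, and 447 tested genes had a higher value.

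The upstream windows of *S100A4*, *S100A3* and *S100A2* are shown as those of 3 genes that follow each other on the chromosome and differed in direction. They are, on the minus strand and written in the direction of the gene, chr1:153545807-153546056, chr1:153549259-153549508 and chr1:153565845-153566094. Capitals mark TATAAA in the first and TGANTCA matches in the other two.
S100A4: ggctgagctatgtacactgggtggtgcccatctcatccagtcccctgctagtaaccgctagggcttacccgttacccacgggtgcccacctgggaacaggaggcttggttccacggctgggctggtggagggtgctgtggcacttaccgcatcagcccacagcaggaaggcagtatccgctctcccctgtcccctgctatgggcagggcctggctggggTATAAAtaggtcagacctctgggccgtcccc
S100A3: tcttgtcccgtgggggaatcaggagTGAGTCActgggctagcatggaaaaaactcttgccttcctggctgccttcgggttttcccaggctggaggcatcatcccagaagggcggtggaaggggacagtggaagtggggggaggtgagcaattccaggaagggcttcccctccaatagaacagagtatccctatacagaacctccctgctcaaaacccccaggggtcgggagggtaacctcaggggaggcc
S100A2: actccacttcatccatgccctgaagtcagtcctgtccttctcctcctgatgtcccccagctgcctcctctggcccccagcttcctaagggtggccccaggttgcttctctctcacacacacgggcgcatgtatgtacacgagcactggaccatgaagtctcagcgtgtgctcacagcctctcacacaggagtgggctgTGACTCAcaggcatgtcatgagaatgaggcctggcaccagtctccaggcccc
TATAAA began 31 bases before the *S100A4* start, and TGANTCA 225 bases before the *S100A3* start and 52 bases before the *S100A2* start. *S100A2* has another window, chr1:153563888-153564137, which is not shown. It has 60% GC and no match to any of the 3 motifs. TATAAA was present in 10.7% of all windows and in 3 of the 13 S100 windows, those of *S100P* and *S100A4* and 1 of *S100A13*. TGANTCA was present in 6.57% of all windows and in 2 of the 13, so it was found both beside a gene that was lower and beside one that was higher with NXP800. The GC content was 55.6% for *S100P*, 62.8% for *S100A4*, 58.4% for *S100A3* and 59.2% for *S100A2*, against a median of 58% over all windows.

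*S100A6*, or calcyclin, is linked to proliferation and binds CacyBP/SIP and annexins. It was the most abundant member in every condition. Its 6 h libraries were at 1161, 1440 and 1144 CPM with DMSO and at 1329, 1406 and 1222 CPM with NXP800. The groups overlapped, and the log2 fold change was 0.08 ± 0.09 (SE). At 24 h its level was 1465, 1509 and 1430 CPM with DMSO and 2624, 2668 and 2778 CPM with NXP800. The treated libraries were above all other 9, with a log2 fold change of 0.87 ± 0.09 (SE), a 1.83-fold difference.

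*S100A16* encodes a widely expressed S100 protein linked to adipocyte differentiation. It had the smallest SE of the 9 genes. The 6 h level was 170, 169 and 170 CPM with DMSO and at 235, 248 and 239 CPM with NXP800, and at 24 h at 170, 176 and 162 CPM with DMSO and 283, 276 and 274 CPM with NXP800. The treated libraries were apart from the controls at both times, and the NXP800 24 h libraries were above the NXP800 6 h libraries. The log2 fold change was 0.50 ± 0.05 (SE) at 6 h and 0.71 ± 0.05 (SE) at 24 h.

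*S100A10* encodes p11, which is not regulated by calcium and forms a heterotetramer with annexin A2 that binds plasminogen at the cell surface. Its 6 h level was 355, 397 and 335 CPM with DMSO and at 358, 334 and 332 CPM with NXP800, and at 24 h at 387, 318 and 374 CPM with DMSO and 430, 390 and 377 CPM with NXP800. The groups overlapped at both times, with log2 fold changes of -0.08 ± 0.08 (SE) and 0.15 ± 0.08 (SE).

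*S100A11*, or calgizzarin, binds annexin A1 and takes part in membrane repair. Its level at 6 h was 387, 413 and 366 CPM with DMSO and at 420, 396 and 376 CPM with NXP800, and at 24 h at 476, 394 and 391 CPM with DMSO and 577, 462 and 536 CPM with NXP800. The groups overlapped at both times, although the 3 pairs at 24 h each had the higher value with NXP800. The log2 fold changes were 0.03 ± 0.09 (SE) and 0.32 ± 0.09 (SE).

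*S100A13* takes part in the release of FGF1 and interleukin-1 alpha, proteins without a signal peptide. It was, at 6 h, at 106, 114 and 103 CPM with DMSO and at 91.3, 102 and 113 CPM with NXP800, and at 24 h at 126, 134 and 118 CPM with DMSO and 125, 119 and 109 CPM with NXP800. The groups overlapped at both times, with log2 fold changes of -0.08 ± 0.08 (SE) and -0.10 ± 0.08 (SE).

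**Figure D2:**
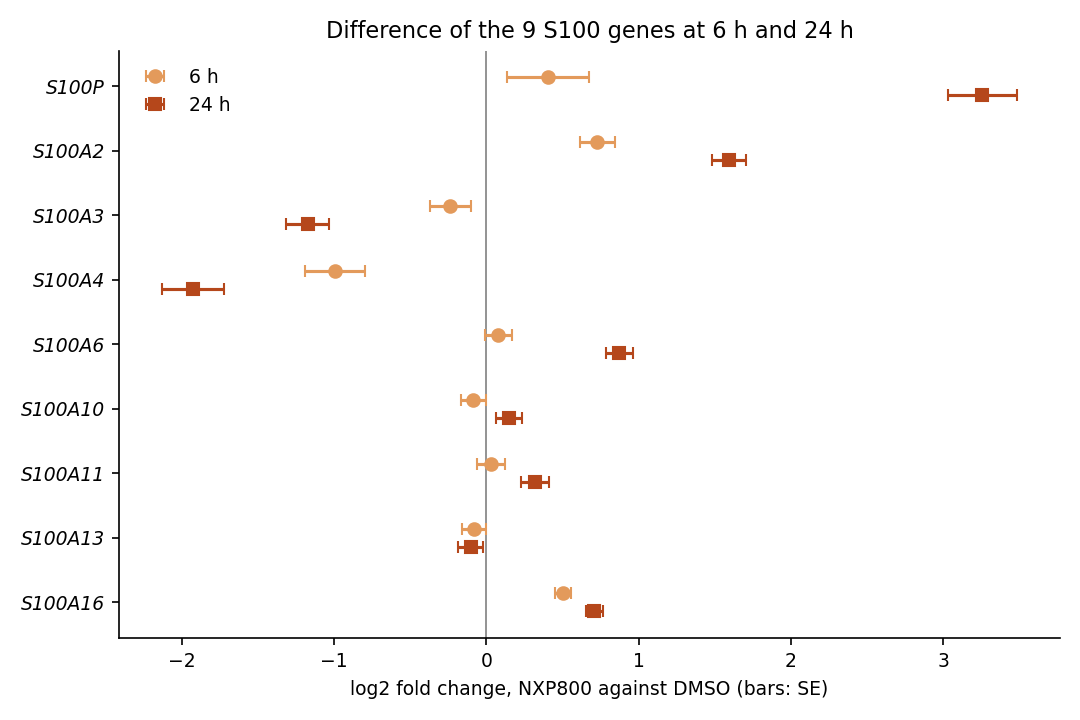
Log2 fold change of NXP800 against DMSO at 6 h (circles) and 24 h (squares) for the 9 S100 genes, with bars for the SE of the edgeR fit. *S100P* goes from 0.41 to 3.26 and *S100A4* from -0.99 to -1.93, while *S100A13* stays at -0.08 and -0.10.

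Over the 9 genes, the spread of the differences was larger at 24 h than at 6 h. At 6 h, 2 genes (*S100A2* and *S100A16*) were past an edgeR adjusted p of 0.05 in the higher direction and 1 (*S100A4*) in the lower direction, where 25.0% and 27.8% of all tested genes were. The same 3 genes had all NXP800 libraries apart from all DMSO libraries, as had 29.3% of tested genes upward and 32.7% downward. At 24 h, 5 of the 9 were past the threshold in the higher direction and 2 in the lower, where 27.5% and 28.6% of all tested genes were. The groups were apart for 4 genes upward (*S100P*, *S100A2*, *S100A6* and *S100A16*) and 2 downward (*S100A3* and *S100A4*), compared with 29.0% and 30.1% of tested genes, so *S100A11* was past the threshold with overlapping groups. In the fit with a replicate block, which pairs libraries of the same number, *S100A3* at 6 h (-0.24) and *S100A10* at 24 h (0.15) were past the threshold as well. Without NXP800 6 h replicate 2, *S100A3* passed at 6 h too (-0.38). As the genes were chosen by this response, these calls are descriptions, and nothing is read from them or from their counts. The median absolute log2 fold change of the 9 genes was 0.24 at 6 h and 0.87 at 24 h, and that of all tested genes 0.34 and 0.38. The choice favors large differences in the 9 genes, so nothing is read from this comparison either. Differences beyond 2-fold were found for 0 of the 9 genes at 6 h and 4 at 24 h, *S100P* and *S100A2* upward and *S100A3* and *S100A4* downward. Of all tested genes, 11.8% were beyond 2-fold at 6 h and 15.1% at 24 h, and nothing is read from these counts.

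The difference between the 24 h and 6 h log2 fold changes was 2.85 ± 0.36 (SE) for *S100P*, 0.86 ± 0.16 for *S100A2* and 0.79 ± 0.12 for *S100A6*. It was -0.94 ± 0.19 for *S100A3* and -0.94 ± 0.28 for *S100A4*. For *S100A11*, *S100A10*, *S100A16* and *S100A13* it was 0.29, 0.23, 0.21 and -0.02. None of the 9 genes was on opposite sides of its controls in all pairs at the 2 times. Of all tested genes, 25.9% had a difference past the threshold in either direction.

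Ratios of genes within a library do not depend on how libraries are scaled to each other. For 100 counts of *S100A6* there were 20.7, 22.2 and 17.3 counts of *S100A4* in DMSO 6 h libraries and 9.00, 10.6 and 9.25 in NXP800 6 h libraries. At 24 h there were 15.0, 24.0 and 22.7 with DMSO and 2.29, 2.97 and 3.56 with NXP800. These genes, which start 9.81 kb apart with *S100A5* between them, thus differed in ratio between treated and control libraries at both times without overlap. For 100 counts of *S100A3* there were 105 to 123 counts of *S100A2* in the 6 DMSO libraries, 197 to 260 with NXP800 at 6 h and 681 to 887 with NXP800 at 24 h. In control cells these neighbors had nearly equal counts, and in treated cells *S100A2* prevailed.

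**Figure D3:**
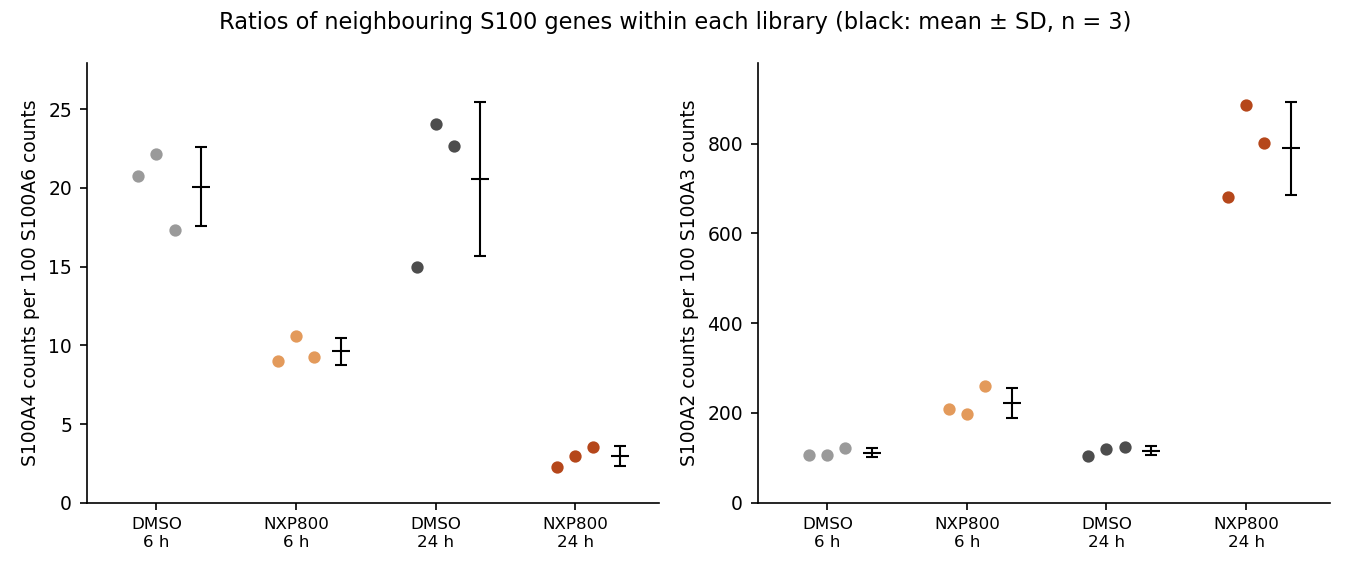
Counts of *S100A4* per 100 counts of *S100A6* (left) and of *S100A2* per 100 counts of *S100A3* (right) in each of the 12 libraries, with black marks for mean ± SD (n = 3). The left ratio is 2.29 to 3.56 in NXP800 24 h libraries against 15.0 to 24.0 with DMSO, and the right ratio is 681 to 887 against 105 to 123.

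The summed level of the S100 family was 2339 to 2880 CPM in DMSO 6 h libraries and 2423 to 2669 CPM in NXP800 6 h libraries. It was 2831 to 2927 CPM in DMSO 24 h libraries and 4068 to 4237 CPM in NXP800 24 h libraries, with no overlap at 24 h. *S100A6* made up 47.5 to 49.99% of the sum with DMSO and 50.4 to 52.7% with NXP800 at 6 h, and 50.5 to 51.6% and 63.2 to 65.6% at 24 h. The share of *S100A4* was 7.63 to 12.4% with DMSO and 1.45 to 2.33% with NXP800 at 24 h. *S100P*, with the highest log2 fold change, was a mean 0.294% of the sum even after 24 h of NXP800.

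**Figure D4:**
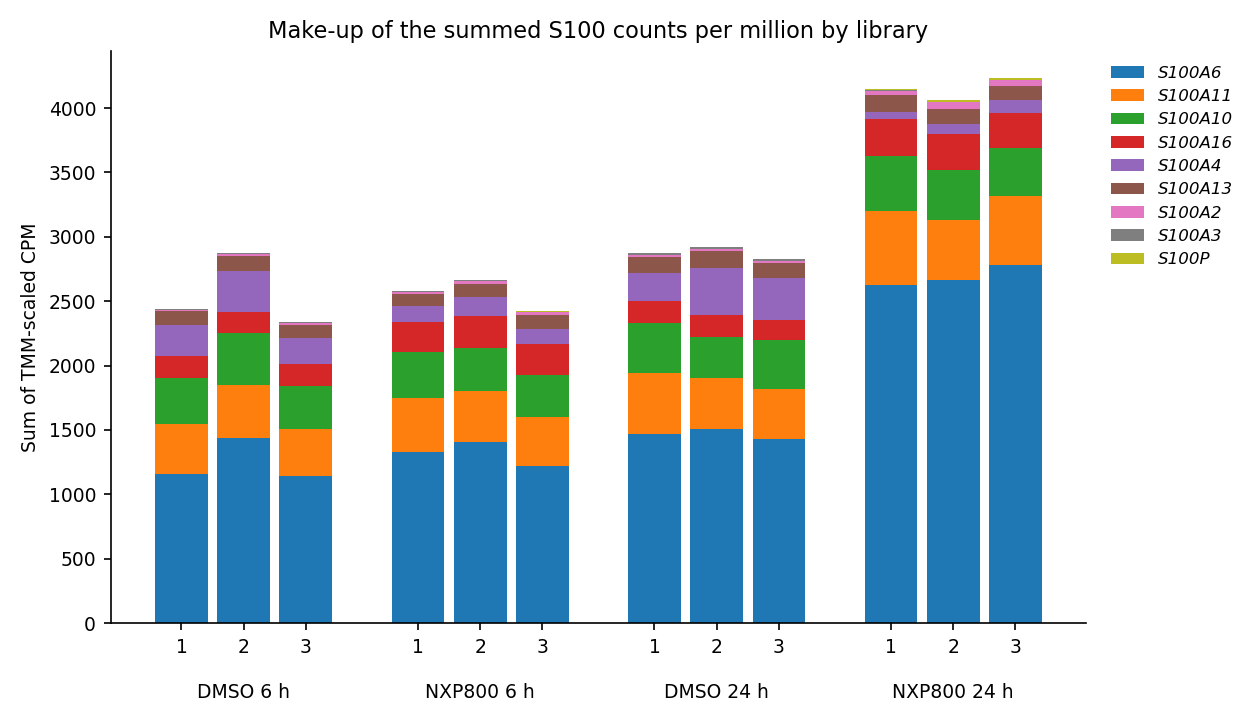
Stacked TMM-scaled CPM of the 9 S100 genes in each library (replicates 1 to 3 of each condition; linear axis from 0). The sum is 4068 to 4237 CPM in NXP800 24 h libraries against 2831 to 2927 CPM with DMSO, and the share of *S100A6* is 63.2 to 65.6% against 50.5 to 51.6%.

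The other 11 S100 genes in the table added little, since the 9 genes held 99.86 to 99.92% of the summed S100 level. *S100A8*, *S100A9* and *S100A12*, the inflammatory members of myeloid cells, and *S100B* and *S100G* had 0 counts in all 12 libraries. *S100A7*, *S100A7A* and *S100Z* had at most 1 count in a library, and *S100A14* 0 to 11 counts. Only *S100A5* and *S100A1* had enough counts to be tested. *S100A5*, which lies between *S100A6* and *S100A4* and had 47 to 117 counts in a library, had log2 fold changes of -0.01 ± 0.25 (SE, edgeR adjusted p = 0.968) at 6 h and 0.17 ± 0.23 (SE, adjusted p = 0.557) at 24 h. *S100A1*, whose exons overlap those of *S100A13* on the opposite strand, had 7, 10 and 2 counts in DMSO 24 h libraries and 2, 2 and 3 in NXP800 24 h libraries. It passed the threshold at 24 h (edgeR adjusted p = 0.0489) and not at 6 h (adjusted p = 0.527), and no fold is given for so few counts.

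The levels of the 9 genes in DMSO libraries at 24 h and 6 h were compared with a test, since the choice of genes did not rest on this comparison, although it shares its libraries with the NXP800 comparisons. With edgeR, 4 of the 9 genes were past the threshold in the higher direction and 0 in the lower, where 21.0% and 20.6% of all tested genes were. *S100A2* was 0.42 ± 0.12 (SE) higher on the log2 scale at 24 h (edgeR adjusted p = 0.00798), *S100A3* 0.36 ± 0.13 (adjusted p = 0.0381), *S100A13* 0.23 ± 0.08 (adjusted p = 0.0319) and *S100A6* 0.23 ± 0.09 (adjusted p = 0.0401). The libraries of *S100A6* overlapped between the times, and those of the other 3 did not. *S100A4* (0.26 ± 0.19, edgeR adjusted p = 0.306), *S100P* (0.16 ± 0.28, 0.681), *S100A11* (0.11 ± 0.09, 0.349), *S100A10* (-0.01 ± 0.08, 0.935) and *S100A16* (-0.0022 ± 0.05, 0.979) did not pass. All 4 calls were lost when libraries were scaled by their size only, which moved the median of all genes by -0.15, and *S100A16* was then past the threshold in the lower direction at -0.15. Those of *S100A3*, *S100A13* and *S100A6* were also lost without replicate 1 or 2 of DMSO 24 h or replicate 1 or 3 of DMSO 6 h, and that of *S100A6* without DMSO 24 h replicate 3 as well, at 0.30 to 0.34, 0.18 to 0.23 and 0.18 to 0.25. The time in culture and the set of libraries cannot be told apart here.

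Annexins are calcium-dependent membrane-binding proteins and the best-known partners of S100 proteins. Of 13 annexin genes 9 were tested, and at 6 h 3 were higher, 2 lower and 4 did not pass, with a median log2 fold change of -0.07 (all genes -0.05). Of all tested genes, 25.0% were higher and 27.8% lower at 6 h, and 27.5% and 28.6% at 24 h. At 24 h 3 were higher, 3 lower and 3 did not pass, with a median of 0.04 (all genes -0.0033). *ANXA2*, the partner of *S100A10*, was at 1732 to 1961 CPM in 6 h libraries and had log2 fold changes of -0.07 ± 0.07 (SE, edgeR adjusted p = 0.408) and 0.04 ± 0.07 (SE, adjusted p = 0.635). There were 15.7 to 20.7 counts of *S100A10* per 100 counts of *ANXA2* over all 12 libraries, and the treated and control ranges overlapped at both times. *ANXA1*, the partner of *S100A11*, was at 590, 578 and 509 CPM with DMSO and 1055, 995 and 862 CPM with NXP800 at 6 h. It rose at 6 h by 0.80 ± 0.08 (SE) on the log2 scale (edgeR adjusted p = 7.8e-07), while at 24 h its log2 fold change was 0.0014 ± 0.08 (adjusted p = 0.989). The counts of *S100A11* per 100 counts of *ANXA1* were accordingly 65.7 to 72.0 with DMSO and 39.8 to 43.6 with NXP800 at 6 h, and 76.3 to 86.5 and 86.1 to 109 at 24 h. *ANXA6*, a large annexin of endosomes and the plasma membrane that binds several S100 proteins, was at 121, 124 and 131 CPM with DMSO and at 39.2, 30.2 and 36.8 CPM with NXP800 at 24 h. It fell at both times, with log2 fold changes of -0.71 ± 0.09 (SE, edgeR adjusted p = 6.9e-06) and -1.82 ± 0.09 (SE, adjusted p = 3.1e-10). The third lower annexin at 24 h, *ANXA9*, was at 0.301, 0.471 and 0.446 CPM with DMSO and 0.165, 0.0627 and 0.255 CPM with NXP800 (edgeR adjusted p = 0.0219). Its call was lost with DESeq2 and without DMSO 24 h replicate 2 or 3 or NXP800 24 h replicate 2. *ANXA3* rose at both times (0.73 and 0.67, edgeR adjusted p = 0.000104 and 0.000191), *ANXA4* at 24 h (0.59, adjusted p = 0.00265), and *ANXA11*, a partner of S100A6, fell (-0.43 and -0.30, adjusted p = 0.00041 and 0.00562). *ANXA5* passed in the higher direction by a small amount (0.21 and 0.17, edgeR adjusted p = 0.0155 and 0.0474). The call of *ANXA11* at 24 h was lost without NXP800 24 h replicate 2, and that of *ANXA5* without DMSO replicate 3 or NXP800 replicate 1 or 2 at 6 h, and at 24 h without DMSO replicate 1 or 2 or NXP800 replicate 1 or 3.

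**Figure D5:**
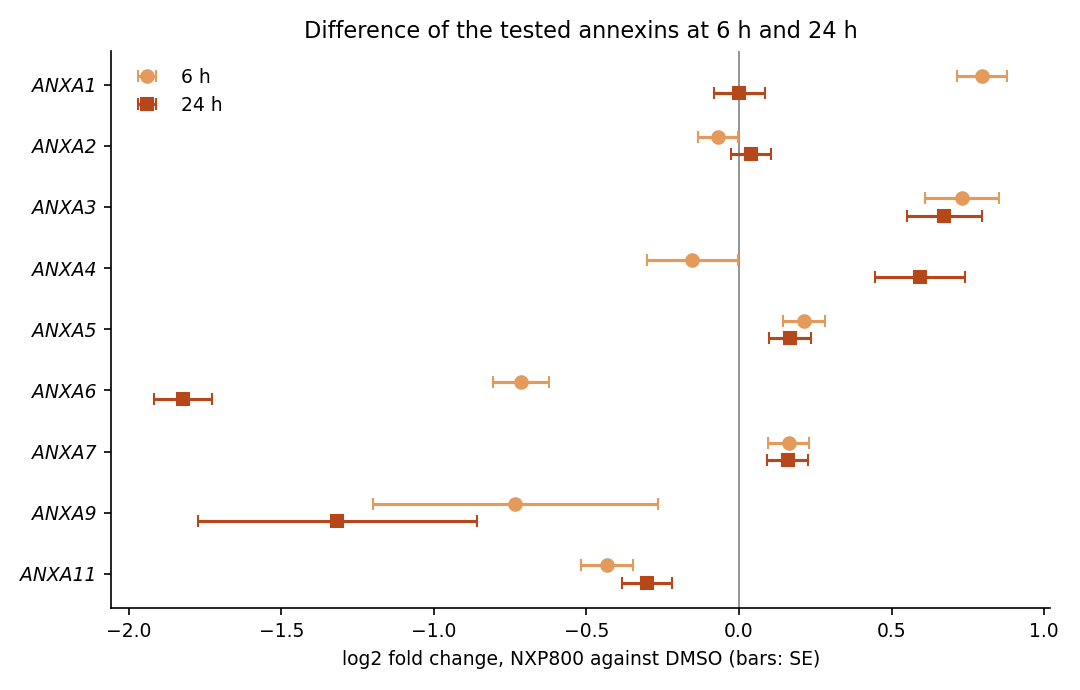
Log2 fold change of NXP800 against DMSO at 6 h (circles) and 24 h (squares) for the 9 tested annexins, with bars for the SE of the edgeR fit. *ANXA1* is at 0.80 at 6 h and 0.0014 at 24 h, *ANXA6* at -0.71 and -1.82, and *ANXA2* near 0 at both times.

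Of 22 further intracellular partners of S100 proteins, 19 were tested. At 6 h 6 were higher and 9 lower, and at 24 h 5 were higher and 8 lower, with median log2 fold changes of -0.09 and -0.02 (all genes -0.05 and -0.0033). Over all tested genes 25.0% were higher and 27.8% lower at 6 h, and 27.5% and 28.6% at 24 h. *MYH10*, which encodes the heavy chain of nonmuscle myosin IIB, was lower at both times (-0.59 ± 0.07 and -0.79 ± 0.07, SE, edgeR adjusted p = 4.4e-06 and 1.5e-07). *MYH9*, the heavy chain gene of the S100A4 partner myosin IIA, was named after its values were seen and was not lower. Its log2 fold change was 0.24 ± 0.10 at 6 h (SE, edgeR adjusted p = 0.044), a call lost when any 6 h library except DMSO replicate 1 was left out (0.15 to 0.27), and 0.04 ± 0.10 at 24 h (adjusted p = 0.717). In the fit with a replicate block, its 6 h value was 0.25 ± 0.06 (SE, edgeR adjusted p = 0.0013). *PPFIBP1*, which encodes the S100A4 partner liprin beta 1, was higher (0.68 ± 0.07 and 0.73 ± 0.08, edgeR adjusted p = 1.4e-06 and 5.9e-07). *CACYBP*, the calcyclin-binding protein gene named after its binding to S100A6, was lower (-0.41 ± 0.08 and -0.57 ± 0.08, edgeR adjusted p = 0.000304 and 1.1e-05), and so were the co-chaperone genes *STIP1* (-0.42 and -0.51) and *PPP5C* (-0.26 and -0.64). *EZR*, which encodes ezrin, a cytoskeletal linker that binds S100P, was higher (0.53 ± 0.07 and 0.57 ± 0.07, edgeR adjusted p = 1.0e-05 and 3.6e-06). *SYT1*, a synaptotagmin gene whose product joins S100A13 in FGF1 release, was higher (1.00 ± 0.17 and 1.84 ± 0.15, edgeR adjusted p = 0.00011 and 5.6e-08). *FGF1* itself, also named after its values were seen, was lower at a low level, with means of 2.61 and 1.19 CPM at 6 h and 1.58 and 0.373 CPM at 24 h (-1.14 ± 0.19 and -2.07 ± 0.25, edgeR adjusted p = 0.000126 and 2.7e-06). *HLTF*, a helicase-like transcription factor gene, was lower (-0.38 ± 0.08 and -0.98 ± 0.08, edgeR adjusted p = 0.000914 and 7.2e-08).

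Of 11 genes for receptors of S100 proteins and for the plasminogen system, 9 were tested. At 6 h 3 were higher and 4 lower, and at 24 h 3 were higher and 5 lower, with median log2 fold changes of -0.15 and -0.33 (all genes -0.05 and -0.0033), beside 25.0% higher and 27.8% lower at 6 h and 27.5% and 28.6% at 24 h over all tested genes. Among the higher genes were *PLAU*, which encodes urokinase (1.15 ± 0.11 and 0.74 ± 0.11, SE, edgeR adjusted p = 4.3e-07 and 3.3e-05) and its receptor gene *PLAUR* (0.42 ± 0.11 and 0.71 ± 0.11, adjusted p = 0.0046 and 4.8e-05). *PLAT*, which encodes the tissue activator that S100A10 binds with plasminogen, was at -0.15 ± 0.16 (SE) on the log2 scale at 6 h (edgeR adjusted p = 0.46) and fell at 24 h (-1.81 ± 0.17, adjusted p = 2.0e-07). Of the receptor genes, *TLR4* (-0.56 and -0.54), *MCAM* (-0.62 and -0.41) and *BSG* (-0.23 and -0.33) were lower at both times with an edgeR adjusted p of at most 0.0347. The 24 h groups of *MCAM* overlapped. *AGER*, a receptor gene named after its values were seen, was at a low level. Its means with DMSO and NXP800 were 2.04 and 0.859 CPM at 6 h, and 2.31 and 0.999 CPM at 24 h. The 6 h call of *BSG* was lost without DMSO replicate 1 or 2 or NXP800 replicate 1 or 3, at -0.22 to -0.19.

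For comparison with other calcium sensors, 35 genes of EF-hand proteins outside the S100 family were tested. At 6 h 3 were higher, 20 lower and 12 did not pass, and at 24 h 6 were higher, 16 lower and 13 did not pass. The lower calls took 27.8% of all tested genes at 6 h and 28.6% at 24 h, and the higher calls 25.0% and 27.5%. The median log2 fold changes of the list were -0.22 and -0.21, against -0.05 and -0.0033 for all tested genes. *CALM3*, a calmodulin gene, was lower at both times (-1.10 and -1.13, edgeR adjusted p = 1.6e-08 and 7.0e-09). *SPARC*, which encodes osteonectin of bone matrix, fell at 6 h and 24 h (-0.79 and -2.02, edgeR adjusted p = 6.1e-05 and 2.7e-09). *MYL9* (-0.62 and -1.40), a myosin light chain gene, and *EFHD1* (-0.73 and -1.69) were lower as well, and *LCP1* (0.67 and 1.22), which encodes plastin 2, *RCN1* (0.67 and 0.50) and *PPP3R1* (0.18 and 0.17) were higher with an edgeR adjusted p of at most 0.0315. The 6 h call of *LCP1* was lost without DMSO replicate 1 or NXP800 replicate 2 or 3, and that of *PPP3R1* without DMSO replicate 2 or 3 or NXP800 replicate 2 at 6 h and DMSO replicate 2 or 3 or NXP800 replicate 1 at 24 h. Of the 7 fused-type genes, which join an S100 domain to long repeats, 2 were tested, and *FLG*, the filaggrin gene, was at a log2 fold change of 0.84 ± 0.33 (SE, edgeR adjusted p = 0.0441) at 6 h and -1.37 ± 0.34 (SE, adjusted p = 0.0026) at 24 h. Its call at 6 h was lost with DESeq2 and without DMSO replicate 1 or 3 or NXP800 replicate 2 or 3. The other, *TCHH*, passed in the higher direction at 24 h only, with means of 1.55 CPM with DMSO and 2.68 CPM with NXP800.

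The genes whose log2 CPM followed that of *S100P* most closely over the 12 libraries, among 9581 candidates, were *GSDME* (Pearson r = 0.978), *RNF7* (r = 0.973) and *MCFD2* (r = 0.972). For *S100A6* they were *KRT81* (r = 0.987), *TRAPPC6A* (r = 0.979) and *SUMF1* (r = 0.978). These r are descriptions over libraries that fall into 4 conditions. The log2 fold changes at 6 h and 24 h were 0.42 and 1.45 for *GSDME* and 0.09 and 1.81 for *KRT81*, which the choice by correlation favors. They were smaller at 24 h for the others: 0.03 and 0.35 for *RNF7*, 0.04 and 0.39 for *MCFD2*, 0.21 and 1.28 for *TRAPPC6A*, and 0.04 and 0.45 for *SUMF1*.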

How the data were processed

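RNA of the 12 libraries was made into strand-specific poly(A) libraries. Per the labels, the submitters' processing notes name fastp 0.20.1, STAR 2.7.5a and HTSeq 0.12.4 with GRCh38.p14. The authors deposited read counts for each gene symbol, not normalized; the strand setting and the mode for overlapping genes are not given in the sources used here. Entries that name no gene were left out (no annotated gene 2.73 to 8.14%, several places 1.86 to 3.37%, ambiguous 2.10 to 2.43%). Genes passing filterByExpr (15979 of 43236) were fitted with edgeR 4.0.16 (R 4.3.3) by its quasi-likelihood test, with TMM scaling, in 1 model of the 4 conditions, and p-values were adjusted by Benjamini-Hochberg over all tested genes at a threshold of 0.05. The SE is the size of the log2 fold change divided by the square root of F. The procedure was tested on simulated data.

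Replicates of a condition differed beyond sampling noise (chi-square per degree of freedom 7.36 to 26.3), so none was a duplicate. The study gives 3 replicates for its RNA-seq and describes its results in general as from independent experiments, but does not say for these libraries that each was a separate culture; p-values measure the spread between them. Libraries of the same number at the same time deviated together (r = 0.159 to 0.329 against -0.268 to 0.058 for other numbers), so the numbers, which come from the sample titles, pair libraries within a time. Between times they did not (r = -0.0886 to 0.0885). The main fit did not use this pairing, and the replicate block did.

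The 9 genes, the gene lists, the motifs and the tests were chosen with earlier results of these data known. Named were the 9 genes, all other S100 genes, at most 3 called genes in each direction of each list with the largest change and a mean log2 CPM of at least 1, the 3 genes most correlated with *S100P* and *S100A6* (mean log2 CPM of at least 3, prior count 2), and *DDIT3* as a check of labels. *ANXA2*, *CD68* and the other marker genes were added as partners or markers. Some genes that meet this rule are not reported here. Alternatives were DESeq2 1.42.0 (its Wald test, and its size factors), library size only, no filter, a minimum of 10 counts in all libraries, a fit to the 6 libraries of a contrast, a replicate block and each library left out in turn. Positions and upstream windows are from RefSeq (GRCh38.p14), exon overlaps and transcript lengths from GENCODE. All 9 genes matched a window, 3 of them more than 1. Counting error is mostly small beside the spread between libraries. It is not small for low genes such as *S100P* in control cells, or where the libraries of a group lay close together. Examples are *S100A16* with DMSO at 6 h (169.0 to 170.2 CPM) and *S100A3* with NXP800 at 24 h (5.45 to 5.70 CPM, 167 to 182 counts).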

Additional observations from a re-analysis of the deposited data

Results flagged for a closer look

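Of the 31 named genes outside the 9 S100 genes, 12 had a 24 h log2 fold change that differed from that at 6 h in edgeR's test of the difference itself. These genes were named for large changes at 6 h or 24 h, so the adjusted p-values below are not independent of that choice and their number is not read as a result. The difference, 24 h minus 6 h, was positive for 3 genes: *SYT1* (0.83, adjusted p = 0.0138), *ANXA4* (0.75, adjusted p = 0.0158) and *NCS1* (0.70, adjusted p = 0.000255). *NCS1*, a neuronal calcium sensor gene, was at -0.22 at 6 h and 0.48 at 24 h, and its 6 h call was lost in several alternatives. The difference was negative for 9 genes. It was -2.21 for *FLG* (edgeR adjusted p = 0.00295), which was at 0.84 and then -1.37, and -0.80 for *ANXA1* (adjusted p = 0.000132), which was at 0.80 and then 0.0014. For genes that were lower at 24 h than at 6 h relative to control, it was -1.66 for *PLAT* (edgeR adjusted p = 9.3e-05), -1.23 for *SPARC* (adjusted p = 0.000113), -1.11 for *ANXA6* (adjusted p = 1.8e-05), -0.96 for *EFHD1* (adjusted p = 0.00339), -0.78 for *MYL9* (adjusted p = 0.000524), -0.60 for *HLTF* (adjusted p = 0.00152) and -0.38 for *PPP5C* (adjusted p = 0.00486). The 9 S100 genes were not tested in this way because they were chosen by their response, and none of them moved in opposite directions in all pairs. Groups of 3 libraries were too small to be searched for outlying samples.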

How the results depend on the processing

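Of the comparisons of genes called, no count moved by more than 1.5 times. At 6 h 8435 genes were called and 7433 to 7971 with a library left out, at 24 h 8953 and 8093 to 8679, and between DMSO times 6649 and 5465 to 6000. With the replicate block the counts were 9953, 10411 and 6905, *S100P* at 24 h was at 3.25 and *S100A4* at -1.92, and *S100A3* at 6 h (-0.24) and *S100A10* at 24 h (0.15) passed in addition. The block changed no other call of the 9 S100 genes at 6 h, at 24 h or between DMSO times. Under NXP800 the calls of these 9 genes are descriptions, since the genes were chosen by that response. No value of a called gene changed sign. With a library left out, the 24 h log2 fold change was 3.20 to 3.35 for *S100P*, 1.51 to 1.70 for *S100A2*, -1.21 to -1.16 for *S100A3*, -2.11 to -1.76 for *S100A4*, 0.85 to 0.91 for *S100A6* and 0.68 to 0.74 for *S100A16*. With library size only, *S100A6* was at 0.96, *S100A16* at 0.80 and *S100A3* at -1.08 at 24 h, and with the 6 libraries of the contrast alone *S100A16* was at 0.53 at 6 h. These values moved by more than 1 SD of the log2 CPM within groups, though by less than the SE for *S100A3* and *S100A16* at 6 h, and kept their direction. *S100A10* passed at 24 h with library size only (0.24). With that scaling, all 3 NXP800 24 h libraries were above all 3 DMSO libraries for 6 of the 9 genes, in place of 4. It also moved the median 24 h log2 fold change of all tested genes by 0.09. The share of all tested genes that were apart was not counted with that scaling, so nothing is read from the 6. The DMSO comparison was less stable: with library size only *S100A2* (0.27), *S100A3* (0.22), *S100A6* (0.09) and *S100A13* (0.08) no longer passed, *S100A3*, *S100A6* and *S100A13* each lost their call in 4 or more leave-one-out fits, *S100A6* lost it with at least 10 counts in every library (0.21), and *S100A4* passed without a filter (0.26). Called annexins at 24 h were 5 higher with library size only in place of 3, and 1 lower without NXP800 24 h replicate 2 in place of 3. Higher intracellular partners at 24 h were 3 in place of 5 with the 6 libraries of the contrast, and higher EF-hand genes at 6 h 1 in place of 3 without NXP800 6 h replicate 2. The causes were not tested. Depth limits *S100P* in control cells, with 17 to 50 counts, and *S100A1*.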
